A study of Rattus norvegicus with 3 samples.

Results

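Immediate early response genes are transcribed within minutes of a stimulus without new protein synthesis. The genes described here are Fos, Fosb, Jun, Junb, Egr1, Atf3, Ier2, Ier3, Dusp1 and Zfp36. They were chosen by name, with earlier results of these data known. Their probes were found through the RefSeq accession of each array spot, with control spots left out. All 10 had a probe, among 26785 genes or unmatched accessions on the array, and each had exactly 1 probe. Kidney RNA of male Sprague-Dawley rats was compared between a control group and a group, G200, that received 200 ppm γ-aminobutyric acid in the drinking water. The rats were 5 weeks old when bought, and 1 week of acclimation and 3 weeks of treatment followed. The labels call the tissue a non-tumor region of the kidney. Each of 3 arrays carried a control RNA in green (Cy3) beside a G200 RNA in red (Cy5). On 0 arrays was this reversed, so a dye effect and a treatment effect cannot be told apart. A negative log2 ratio means a lower signal in G200.

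The products of Fos, Fosb, Jun and Junb pair with each other to form the transcription factor AP-1, and Atf3 encodes a related factor of the ATF/CREB family. Growth factors, cytokines, stretch and cell injury switch these genes on through MAP kinases, serum response factor (SRF) and CREB, and Dusp1 and Zfp36 then limit the response by dephosphorylating MAP kinases and by speeding the decay of short-lived mRNAs. In kidney they are known to respond to ischaemia and to the handling of fresh tissue.

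Of the 10 genes, 6 (Fosb, Jun, Junb, Atf3, Ier2 and Ier3) were well above background in both colours on all 3 arrays and were tested. Jun, Fosb, Junb and Ier2 fell in G200 by limma's adjusted p, at a threshold of 0.05. This is 4 of 6 tested genes, beside 25.9% of the 14179 genes tested that were called lower. Since the genes were chosen with earlier results known, the contrast is a description and was not tested. In either direction, 37.5% of all genes were called. By limma 0 of the 6 rose, beside 11.6% of all genes, and at an unadjusted p under 0.05 limma gave the 4 genes named here, all lower. Between the channels and with unequal variance, the methods' t-test gave 4 of the 6 at the unadjusted threshold and 0 after adjustment, and its form on the log ratios gave 3 and 0. The median log2 ratio of the 6 was -0.37, beside -0.05 over all genes tested, and on replicates 1, 2 and 3 it was -0.22, -0.44 and -0.40. When each array was centred on its median instead of loess (median centring below), the median of all genes moved to 0.27 and that of the 6 to 0.24, and 1 of the 6, Jun, was called, while 1245 of all genes were called lower and 4990 higher. Without normalization between the dyes 304 of all genes were called lower and 8010 higher, and 3 of the 6 (Atf3, Ier2 and Ier3) were called, all higher. With loess 4 of the 6 were below 0 on all 3 arrays, as were 41.7% of all genes.

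**Figure D1:**
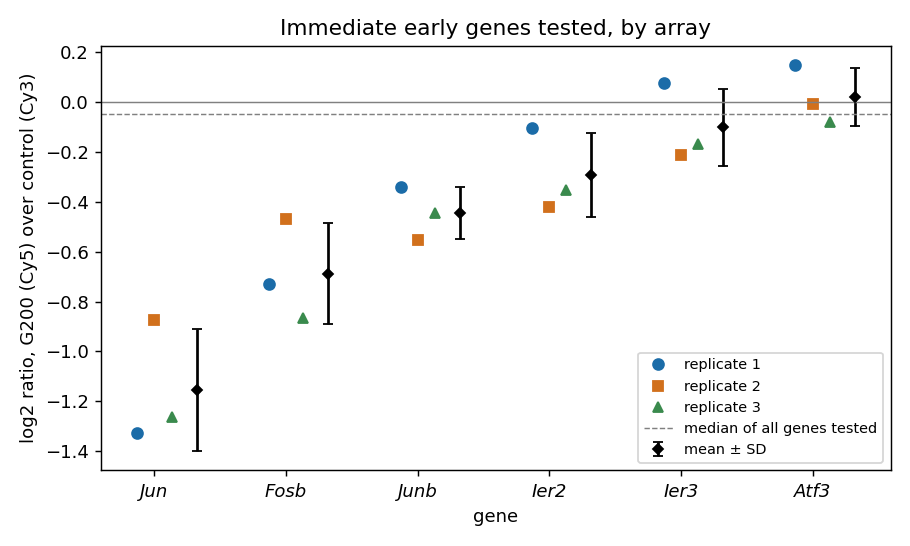
Log2 ratio of G200 over control (vertical axis) for the 6 genes tested (horizontal axis). Symbols are the 3 arrays, black diamonds with bars are the mean ± SD, and the dashed line is the median of all genes tested, -0.05. With loess Jun, Fosb, Junb and Ier2 are below 0 on every array, and Junb and Ier2 are above 0 on average with median centring.

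Jun encodes the main partner of the Fos proteins in AP-1. Its log2 ratio was -1.33, -0.87 and -1.26 on replicates 1, 2 and 3. The signal minus local background was 481.5, 563 and 558 scanner units in the control and 499.5, 420 and 430.5 in G200, before the dyes were scaled to each other. All 3 ratios lay below the median of all genes. The mean was -1.15 ± 0.25 (SD, n = 3 arrays; 95% interval -1.40 to -0.90; limma adjusted p = 0.00119), a level 2.23-fold lower in G200. Jun lay at percentile 3.18 of the log2 ratios of all genes, and between percentiles 1.69 and 10.3 under the 16 alternative settings. Its mean was below 0 under all 16, and it was called under 13, with adjusted p from 0.000264 to 0.449. Settings that change only the test, the filter, the averaging of probes or the scaling between arrays left the mean at -1.15. Their sign was therefore fixed in advance. The call was lost in both forms of the methods' t-test (adjusted p = 0.125 and 0.101) and without normalization between the dyes (limma adjusted p = 0.449), where the mean was -0.18.

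Fosb encodes a Fos protein that binds DNA as a partner of the Jun proteins. Its log2 ratio was -0.73, -0.47 and -0.86 on replicates 1, 2 and 3. The net signal was 105, 92 and 115 in the control and 124, 62 and 80 in G200. The mean was -0.69 ± 0.20 (SD, n = 3; limma adjusted p = 0.00364), lower on 3 of 3 arrays. With median centring it was -0.34 (limma adjusted p = 0.0639), and without normalization between the dyes it was 0.0057. Relative to the median of all genes it was -0.61 under both, which follows from the settings, since they differ only by a constant on each array. Its adjusted p ranged from 0.00188 to 0.982 over the alternatives.

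Junb encodes a Jun protein that activates transcription less strongly than Jun at many sites. Its log2 ratio was -0.34, -0.55 and -0.44, and its net signal was 547.5, 611.5 and 601.5 in the control and 1246.5, 593.5 and 890 in G200. The mean was -0.45 ± 0.11 (SD, n = 3; limma adjusted p = 0.00634). The sign depended on the scaling between the dyes: median centring gave 0.22, and 0.57 was found without normalization. Relative to the median of all genes, Junb was at -0.40 with loess and at -0.05 with median centring. Without replicate 3 the limma adjusted p of Junb was 0.0606, and its adjusted p ranged from 0.0038 to 0.347 over all alternatives.

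Ier2 encodes a small nuclear protein of unsettled function. Its probe is printed in 10 spots. The mean of the spots was -0.10, -0.42 and -0.35 on replicates 1, 2 and 3, with an SD between spots of 0.063, 0.062 and 0.058. The 10 spots were all below 0 on each array, and those of replicate 1 did not overlap with those of replicates 2 and 3. Over the arrays the mean was -0.29 ± 0.17 (SD, n = 3; limma adjusted p = 0.0381). The call was lost without replicate 2 (limma adjusted p = 0.123), without replicate 3 (0.203), with a normexp offset of 0 (0.0689) and with the deposited log ratio (0.0889). The mean was 0.32 with median centring, and without normalization between the dyes it was 0.67 and called higher (limma adjusted p = 0.0459). Its adjusted p ranged from 0.0172 to 0.206 over the alternatives.

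Ier3, which encodes a stress-induced regulator of cell survival, also has 10 spots. Its log2 ratio was 0.08, -0.21 and -0.17, over 10, 7 and 9 spots left after outlier marks. The SD between spots was 0.10, 0.10 and 0.099. The mean of -0.10 ± 0.16 (SD, n = 3) did not pass the test (limma adjusted p = 0.358), and its 95% interval ran from -0.30 to 0.10. Without normalization between the dyes it was 0.68 (limma adjusted p = 0.0387), and over the alternatives its adjusted p ranged up to 0.724.

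**Figure D2:**
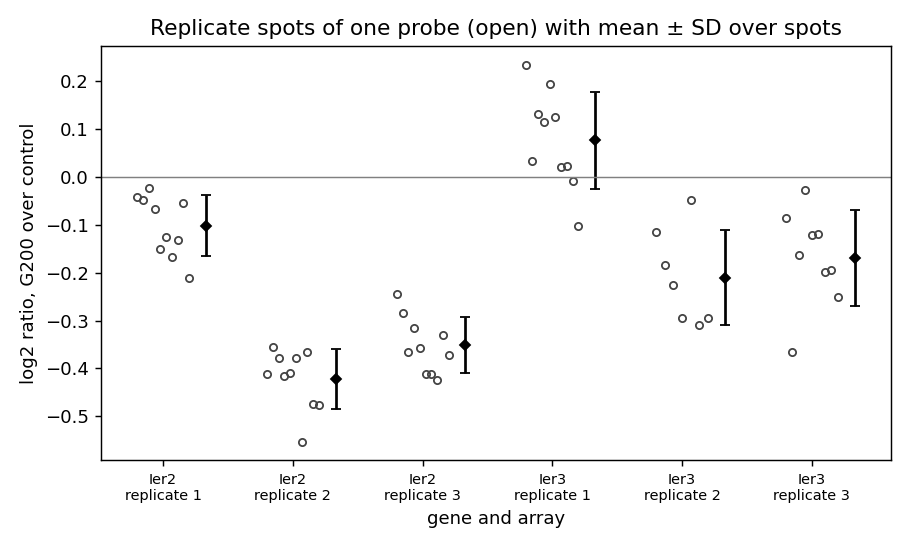
Log2 ratio of G200 over control (vertical axis) of each replicate spot of the Ier2 and Ier3 probes on each array (horizontal axis). Open circles are spots without an outlier mark, and diamonds with bars are the mean ± SD over spots. The Ier2 means are -0.10, -0.42 and -0.35, and the spots of replicate 1 lie above those of the other arrays.

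Atf3 encodes a factor that is induced by cellular stress and can repress transcription as a homodimer. Its log2 ratio was 0.15, -0.01 and -0.08, with net signals of 48, 54 and 56 in the control and 125, 56 and 79 in G200. The arrays lay on both sides of 0, and the mean was 0.02 ± 0.12 (SD, n = 3; 95% interval -0.16 to 0.20; limma adjusted p = 0.844). Without normalization between the dyes it was 0.60 and called higher (limma adjusted p = 0.0402), and over the alternatives its adjusted p ranged up to 0.933.

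The other 4 genes did not pass the filter, and no fold is given for them. Fos encodes the founding partner of Jun in AP-1. Its net signal was 21, 26.5 and 18 in the control, well above background on 1 of 3 arrays, and 6, 8.5 and -1 in G200, well above background on 0 of 3. Egr1, a zinc finger transcription factor, had 24, 24.5 and 31 in the control and 20, 7.5 and 27 in G200, and was well above background on 1 of 3 arrays in green and 2 of 3 in red. Dusp1 had 18.5, 23 and 22 in the control and 5.5, 18.5 and 12 in G200. Zfp36 had 25.5, 23 and 18 in the control and 14, 6 and 14 in G200. Neither Dusp1 nor Zfp36 was well above background in either colour on any array. For scale, the lowest 1% of the spots well above background ended at 24.5, 23.5 and 23 in green and at 17, 16 and 14.5 in red.

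**Figure D3:**
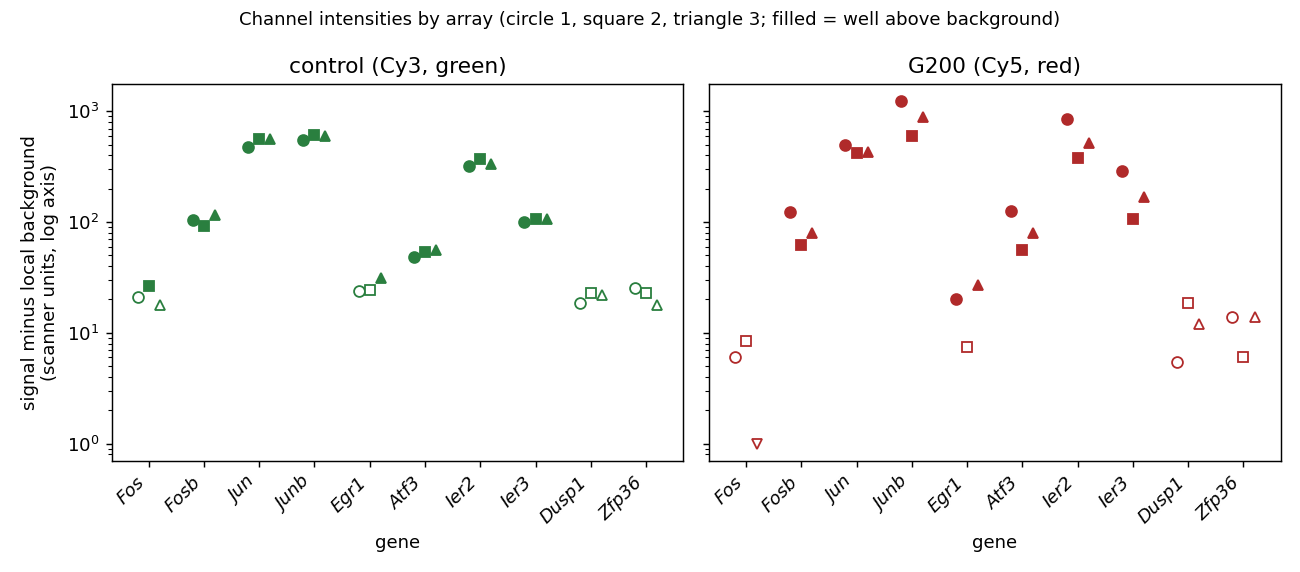
Signal minus local background in scanner units (vertical, log axis) for the 10 genes (horizontal axis), control in green and G200 in red. Symbols are the arrays, filled where the probe was well above background. The value of -1 for Fos in G200 is drawn as a downward triangle at the bottom of the axis. Dusp1 and Zfp36 have open symbols only, and Fos and Egr1 have both kinds.

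The 250 bases before the annotated start were matched in the RefSeq promoter table for 6 of the 10 genes: Fosb, Junb, Egr1, Ier2, Dusp1 and Zfp36. Those of Junb, Ier2 and Fosb are shown, the genes among these 6 that were called lower with loess. Capitals mark TGACGTCA or its core TGACG (the CREB site), CCAAT and TATAAA, on either strand.
Junb, GRCr8 chr19:40080876-40081125, plus strand: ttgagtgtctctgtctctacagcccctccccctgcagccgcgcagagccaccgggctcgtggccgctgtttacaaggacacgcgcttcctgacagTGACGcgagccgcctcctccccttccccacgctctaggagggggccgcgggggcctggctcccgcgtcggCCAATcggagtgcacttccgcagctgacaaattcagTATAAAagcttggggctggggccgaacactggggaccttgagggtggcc
Ier2, GRCr8 chr19:40399123-40399372, plus strand: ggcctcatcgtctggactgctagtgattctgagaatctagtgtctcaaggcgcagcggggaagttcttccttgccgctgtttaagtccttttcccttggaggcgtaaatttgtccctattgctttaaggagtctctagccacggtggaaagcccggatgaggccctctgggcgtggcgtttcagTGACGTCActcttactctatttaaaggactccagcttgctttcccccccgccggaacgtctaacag
Fosb, GRCr8 chr1:88089185-88089434, minus strand: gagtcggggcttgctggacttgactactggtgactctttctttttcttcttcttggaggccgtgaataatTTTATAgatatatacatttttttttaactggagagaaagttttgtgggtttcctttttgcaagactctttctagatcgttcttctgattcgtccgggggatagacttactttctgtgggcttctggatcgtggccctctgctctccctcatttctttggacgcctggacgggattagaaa
Junb held TGACG 155 bases before the start, CCAAT 85 bases before and TATAAA 49 bases before. Ier2 held TGACGTCA 66 bases before the start, which reads the same on both strands and contains TGACG on each. Fosb held TATAAA on the opposite strand, 180 bases before the start. Over all 33469 promoter windows of this length and on both strands, TGACGTCA was found in 1.59%, TGACG in 18.2%, CCAAT in 34.0% and TATAAA in 12.9%. Among the genes that did not pass the filter, Dusp1 held TGACGTCA 124 bases before the start and a further TGACG 172 bases before. Egr1 held TGACG on the opposite strand, 135 and 66 bases before the start, and CCAAT 228 bases before. The CArG box, the element bound by SRF, occurred at 2 places in Egr1 and 1 in Zfp36, and in 1.50% of all windows. GGGCGG was found in Dusp1 and Zfp36 and in 30.5% of all windows. The AP-1 site, searched as TGACTCA and TGAGTCA, was in none of the 6 windows and in 4.05% of all windows. These are matches of letters only.

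Among themselves, the 6 genes were ordered Jun, Fosb, Junb, Ier2, Ier3 and Atf3 from the lowest mean log2 ratio. Differences between genes within an array are not moved by a constant shift between the dyes. Jun was below Fosb by a log2 difference of 0.60, 0.41 and 0.40 on replicates 1, 2 and 3. Fosb minus Junb was -0.39, 0.08 and -0.42, so their order did not hold on every array. Junb minus Ier2 was -0.24, -0.13 and -0.09. With median centring the last 4 lay at 0.22 for Junb, 0.32 for Ier2, 0.33 for Ier3 and 0.25 for Atf3, while Jun was at -0.53 and Fosb at -0.34.

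**Figure D4:**
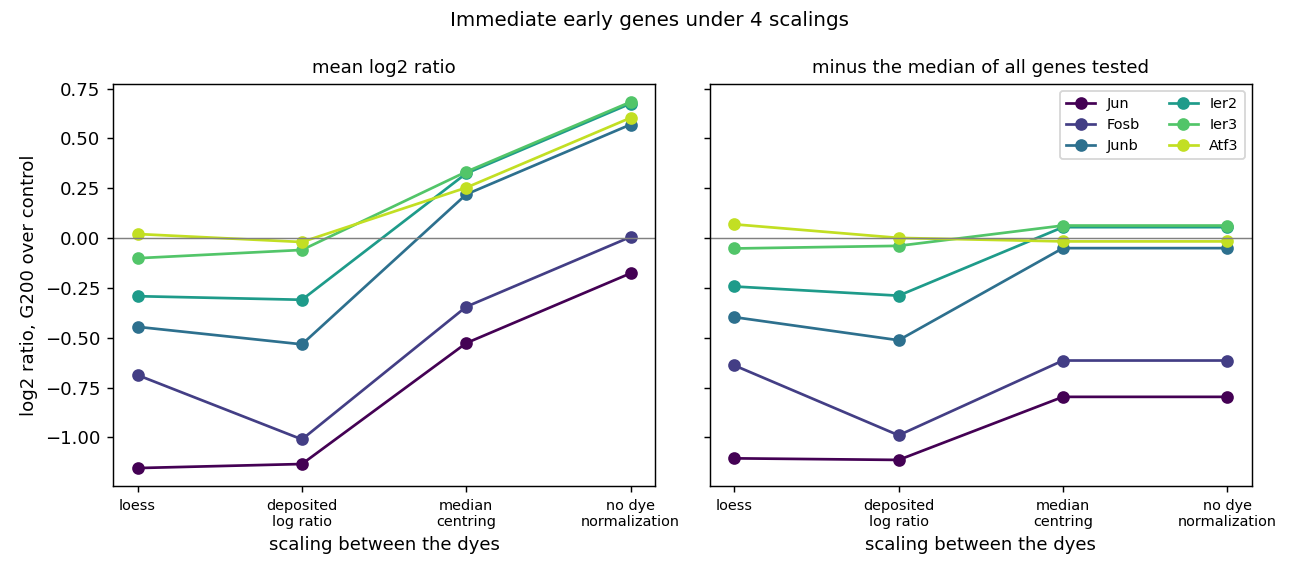
Mean log2 ratio of the 6 genes (left) and the same minus the median of all genes tested (right) under 4 ways of scaling the dyes (horizontal axis). In the left panel Jun is below 0 throughout, Fosb is at 0.0057 without normalization, and Junb, Ier2 and Ier3 are above 0 with median centring and without normalization. In the right panel Junb is at -0.05 under those settings, which differ only by a constant on each array and so give the same values there.

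The SD of the log2 ratio over arrays had a median of 0.16 in the 6 genes, from 0.11 in Junb to 0.25 in Jun, beside 0.12 over all genes. The red channel varied more over the arrays than the green in 5 of the 6 genes and in 11343 of all 14179 genes. For Ier2 the SD between arrays was 0.051 in green and 0.12 in red, and the SD between its spots was 0.23 in green and 0.24 in red. For Ier3 the SD between arrays was 0.038 in green and 0.17 in red, and between its spots 0.073 and 0.11. Over 1109 probes printed in several spots, the median SD between arrays was 0.032 in green and 0.10 in red, against 0.13 between spots. The SD between arrays is of spot averages, so it is not on the scale of the SD between spots. Whether the green channels held RNA of separate control rats was not tested, and the labels do not say. The test sets the ratio against 0, and it leaves out the spread between control rats if the green channels did not hold separate rats.

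Of 71 other immediate early genes, 43 were tested, of which 13 fell (30.2%, beside 25.9% of all genes) and 5 rose (11.6%, as over all genes). Their median log2 ratio was -0.09, beside -0.05 over all genes, and 26 had no probe past the filter. The lowest were Errfi1, a feedback inhibitor of the EGF receptor, at -0.998 ± 0.46 (SD, n = 3 arrays, as for each gene below; limma adjusted p = 0.00658), and Dusp8, a MAP kinase phosphatase, at -0.77 ± 0.25 (limma adjusted p = 0.00363). Ccn1, a matricellular protein, was at -0.69 ± 0.33 and Zfp36l2, a relative of Zfp36, at -0.65 ± 0.073. Ccn2 was higher, at 0.60 ± 0.32, as were Id2 at 0.57 ± 0.17, Sgk1, a kinase of renal sodium transport, at 0.35 ± 0.27, and Rhob at 0.32 ± 0.038. Without 1 array the call was lost for Ccn2 (limma adjusted p = 0.0634 without replicate 2), for Ccn1, Id2 and Rhob (0.0699, 0.0501 and 0.0977 without replicate 3) and for Sgk1 (0.107 without replicate 1 and 0.166 without replicate 2). With the deposited log ratio it was lost for Sgk1 (limma adjusted p = 0.0808). Without normalization between the dyes Errfi1 (0.05), Ccn1 (0.27) and Zfp36l2 (0.25) were above 0. With median centring 6 of the 13 lower genes were below 0 and 2 were called, and without normalization between the dyes 2 were below 0. The 5 higher genes were called under both. In all, the list held 11 higher and 2 lower calls with median centring and 19 calls, all higher, without normalization. Of all 14179 genes tested, 4990 were called higher and 1245 lower with median centring. Without normalization 8010 were called higher and 304 lower. Without replicate 3 the list held 5 lower and 2 higher calls, beside 1429 lower and 182 higher among all genes tested.

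In the MAP kinase and SRF pathway that switches these genes on, 32 of 39 genes were tested, of which 12 fell (37.5%, beside 25.9% of all genes) and 4 rose (12.5%, beside 11.6%), and the median log2 ratio was -0.16, beside -0.05. Mapk13, a p38 kinase, was at -0.82 ± 0.031 (limma adjusted p = 0.000962) and was also below 0 with median centring (-0.58) and without normalization (-0.23). Map2k2, which with Map2k1 encodes the kinases that activate ERK, was at -0.64 ± 0.19, Rps6ka1 at -0.64 ± 0.20 and Crem at -0.54 ± 0.064. Higher were Map2k1 at 0.45 ± 0.26, Rps6ka3 at 0.35 ± 0.13, Mapkapk2 at 0.27 ± 0.17 and Atf1 at 0.25 ± 0.049. Each of these 4 higher calls was lost without 1 array. Without replicate 3 the limma adjusted p was 0.123 for Map2k1, 0.0840 for Rps6ka3, 0.215 for Mapkapk2 and 0.128 for Atf1. Without replicate 1 it was 0.0516 for Map2k1, 0.0584 for Rps6ka3 and 0.0935 for Atf1, and without replicate 2 it was 0.152 for Mapkapk2 and 0.0728 for Atf1. With the deposited log ratio Mapkapk2 (0.175) and Atf1 (0.0565) were not called. Without normalization between the dyes Map2k2, Rps6ka1 and Crem were above 0. With median centring Map2k2 and Rps6ka1 were above 0, 4 of the 12 lower genes were below 0 and 1 was called. The 4 higher genes were called. In all, the list held 9 higher calls and 1 lower with median centring, beside 4990 and 1245 of all 14179 genes tested. It held 15 calls, all higher, without normalization, beside 8010 higher and 304 lower of all genes. Without replicate 3 the list held 4 calls, all lower, beside 1429 lower and 182 higher of all genes. Without replicate 1 it held 9 lower and 1 higher, beside 2659 and 862 of all genes.

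Markers of other tissues were measured beside these genes. Of 24 liver markers 22 were tested and all 22 were called lower in G200, beside 25.9% of all genes. All 22 were also lower in sign under median centring and without normalization. Under each, 17 were called lower, beside 1245 and 304 of all 14179 genes tested. Their median log2 ratio was -1.50, -2.89 and -3.92 on replicates 1, 2 and 3. Their summed normalized intensity was 165391, 196441 and 206849 in the control and 51175, 19704 and 8108 in G200. The brightest was Ttr, and Tat and Cps1 were not past the filter. Alb was at -3.82 ± 1.81, Ttr at -3.72 ± 1.82, Ambp at -3.35 ± 1.47 and Fgb at -3.32 ± 1.35. The part of liver RNA in the changes of the immediate early genes was not tested. In such bulk RNA, fewer cells of a type and less RNA per cell cannot be told apart.

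Of 18 kidney markers 17 were tested, of which 5 were higher (29.4%, beside 11.6% of all genes) and 1 was lower (5.9%, beside 25.9%). Their median log2 ratio was 0.26, beside -0.05 over all genes. The brightest, Umod, was at 0.87 ± 0.096, Cubn at 0.45 ± 0.33, Aqp1 at 0.41 ± 0.061, and Slc4a1 at -0.68 ± 0.19. Slc12a1 and Aqp2 were below 0 on all 3 arrays, at -0.18 and -0.30, and were not called (limma adjusted p = 0.0901 and 0.0605). Aqp2 was at 0.56 with median centring and called higher (limma adjusted p = 0.0265). The call of Cubn was lost without replicate 1 (limma adjusted p = 0.0646), without replicate 3 (0.190) and with the deposited log ratio (0.0666), and that of Aqp1 without replicate 3 (0.0599). With median centring Slc4a1 was at -0.012, and without normalization at 0.34. The kidney markers summed to 84644, 83877 and 85739 in the control and 105964, 106256 and 99853 in G200. Umod held a large part of these sums, with 25876.5, 28840.5 and 29610.3 in the control and 51057.1, 50443.2 and 52444.2 in G200. The sums therefore do not describe the other kidney markers. Of 16 leukocyte markers 8 were tested, of which 1 rose (12.5%, beside 11.6% of all genes) and 0 fell. This was Lyz2, the brightest (0.60 ± 0.26, limma adjusted p = 0.0723 without replicate 3), while Cd3e, Cd4 and Cd8a were not past the filter. Of 16 endothelial and stromal markers 14 were tested, with Plvap the brightest. Of the 14, 7.1% rose, beside 11.6% of all genes, and 7.1% fell, beside 25.9%. Dcn rose (1.09 ± 0.37) and Pecam1 fell (-0.56 ± 0.048), although Pecam1 was at 0.14 with median centring. The other 12 were not called, among them Col1a1 at -0.13, Col3a1 at 0.05, Acta2 at -0.13, Kdr at 0.04 and Emcn at 0.14, and the median of the 14 was 0.04. Of 7 blood cell markers 4 were tested and limma called 0 (1 at an unadjusted p under 0.05). The brightest, Hbb, had log2 ratios of 0.14, -0.08 and -1.23. The part of these cells in the changes was not tested.

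**Figure D5:**
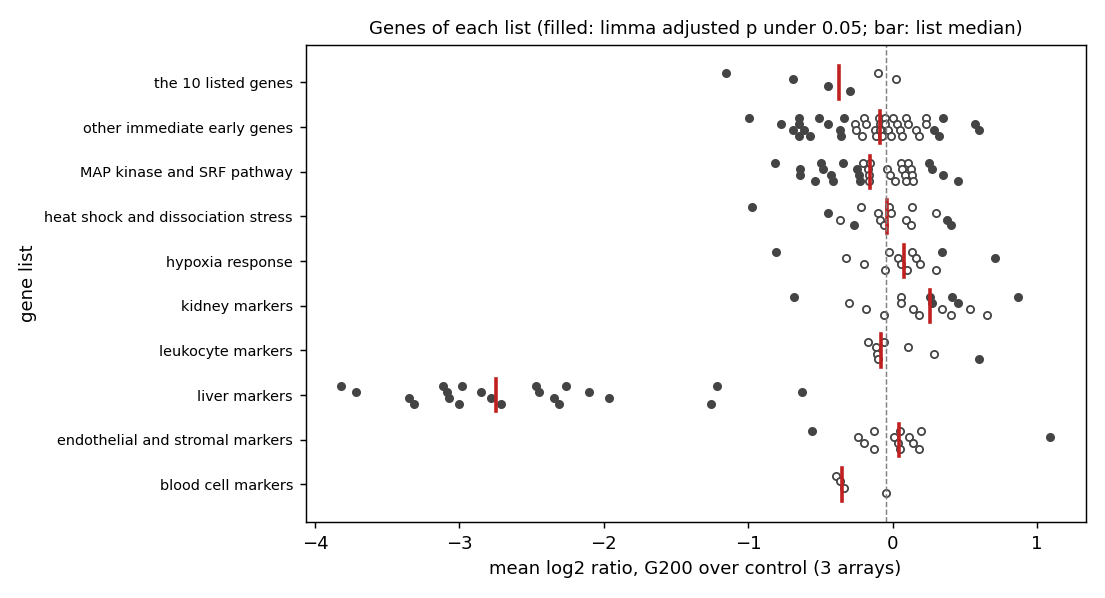
Mean log2 ratio of G200 over control over 3 arrays (horizontal axis) for the tested genes of each list (vertical axis). Filled circles have a limma adjusted p under 0.05, red bars are list medians and the dashed line is the median of all genes. With loess the liver markers, at a median of -2.75, stand lowest, and the 6 tested immediate early genes have a median of -0.37.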

How the data were processed

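Per the labels, total kidney RNA was labelled with Cy3 (control) or Cy5 (G200) and hybridised in pairs to 3 arrays. The file headers give 1 slide and 1 scan date for all of them. The authors deposited Agilent Feature Extraction tables (version 11.5.1.1 in the file headers, 9.3.2.1 in the submitters' processing notes). The deposited median spot and background intensity of each colour was used, and the deposited log10 ratio of red over green, background-subtracted and dye-normalized by the authors, served as an alternative. In limma 3.58.1 (R 4.3.3) the background was corrected by normexp with offset 50, followed by loess between the dyes. Control spots and outlier spots (635, 736 and 945) were left out, and replicate spots were averaged. A probe was kept if 1 colour was well above background on every array, and the brightest stood for its gene. Of 30367 probes, 18355 matched a symbol by accession (RefSeq, GRCr8). Mean log2 ratios were tested against 0 with lmFit and eBayes, adjusted by Benjamini-Hochberg over 14179 genes. Summed intensities followed Aquantile scaling. The steps were run on simulated arrays with as many higher as lower genes, and only brighter genes were scored. The simulation used loess only, so it does not decide between the scalings of the dyes. Well above background were 59.8%, 62.7% and 62.3% of spots in green and 63.0%, 56.6% and 61.0% in red, and the number of arrays limits the precision. The members and lists were chosen with earlier results of these data known. Besides the 10 genes, up to 4 genes per list and direction are named, those with the largest mean log2 ratio among genes called with the same sign on all arrays, and, of marker lists, the brightest gene and defining markers. The result of 1 kidney marker is not reported here.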

Additional observations from a re-analysis of the deposited data

How the results depend on the processing

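Of 17 alternative settings 16 were run. The slide as a block was not run, since all arrays were on 1 slide. The ratio within an array pairs control with G200. With the channels fitted separately, without the array as a block, 4094 genes and 4 members were called. This fit and the t-test on the channels take the 3 green channels as 3 control samples. The scaling between the dyes turned directions. With median centring 1 of the tested members was called, their median was 0.24, and Junb was at 0.22, Ier2 at 0.32 and Ier3 at 0.33. Without normalization between the dyes the median of all genes was 0.62, 8314 genes were called (8010 higher, 304 lower, against 1638 and 3678 with loess, of 5316), and the members' median was 0.59, with Fosb at 0.0057, Junb at 0.57, and Atf3 (0.60), Ier2 (0.67) and Ier3 (0.68) called higher. The cause was not tested. Atf3 was at -0.020 with the deposited log ratio. Without a filter on dim probes all 10 members entered and their median was -0.11. Run on log ratios, the methods' t-test called 2 genes and 0 members after adjustment (4475 genes at an unadjusted p under 0.05), and on the channels 351 genes and 0 members (4211 unadjusted). On the log ratios it called 0 genes of the 4 response lists, and on the channels 2 other immediate early genes, 1 MAP kinase and SRF gene and 0 of heat shock or hypoxia. Leaving out 1 array gave 1611 to 4965 genes, 2 to 4 members, a members' median of -0.44 to -0.31 and Atf3 at -0.044 to 0.071. Without replicate 3, 2 members were called. Signal over background limits Fos, Egr1, Dusp1 and Zfp36, for which no ratio is given.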

Other observations

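Among genes of the heat shock and dissociation stress response, 16 of 20 were tested. Of these, 3 fell (18.75%, beside 25.9% of all genes) and 2 rose (12.5%, beside 11.6%). The median log2 ratio was -0.04, beside -0.05 over all genes. Atf4, a factor of the integrated stress response, was at -1.21, -0.75 and -0.96 on replicates 1, 2 and 3 (limma adjusted p = 0.00157), Hspb1 was at -0.44 ± 0.044 (SD, n = 3 arrays) and Bag3 at -0.27 ± 0.13. The call of Bag3 was lost with the deposited log ratio (limma adjusted p = 0.0950), without replicate 2 (0.0883) and without replicate 3 (0.239). The mitochondrial chaperonins Hspd1 and Hspe1 were higher, at 0.40 ± 0.14 and 0.38 ± 0.12. Both calls were lost with the deposited log ratio (limma adjusted p = 0.0819 and 0.0598), and that of Hspe1 also without replicate 3 (0.103). With the deposited log ratio the list held 2 calls, both lower, beside 3177 lower and 2147 higher of all genes. The list held 9 calls with median centring and 12 without normalization between the dyes, all higher. Among all 14179 genes tested, 4990 and 8010 were called higher under these settings. Without replicate 3 the list held 1 higher and 2 lower, beside 182 and 1429 of all genes. Without normalization Atf4 was at 0.11. With median centring Atf4 was at -0.24, Hspb1 at 0.17 and Bag3 at 0.24, and Hspd1 and Hspe1 were called higher. Hspa8, the brightest of the list, had log2 ratios of -0.35, 0.23 and 0.08.

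Of 22 hypoxia response genes 14 were tested, of which 2 rose (14.3%, beside 11.6% of all genes) and 1 fell (7.1%, beside 25.9%). The median log2 ratio was 0.08, beside -0.05 over all genes. Ndrg1 was at 1.14, 0.41 and 0.57 on replicates 1, 2 and 3 (limma adjusted p = 0.0126), and Ldha, the brightest, at 0.34 ± 0.16 (SD, n = 3 arrays). Vegfa was lower, at -0.76, -0.49 and -1.16 (limma adjusted p = 0.00598). It was at -0.07 with median centring and at 0.28 without normalization between the dyes. The list held 6 calls with median centring and 9 without normalization, all higher, beside 4990 and 8010 called higher of all 14179 genes tested. Without replicate 3 the list held 2 calls, both lower, beside 1429 lower and 182 higher of all genes. The limma adjusted p was then 0.0609 for Ndrg1 and 0.0681 for Ldha. Without replicate 1 the adjusted p of Ldha was 0.0792, and without replicate 2 it was 0.0609. Epo was not past the filter.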
